A study of Mus musculus with 6 samples.

Results

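The genes examined here encode the proteins of the ribosomes of the cytosol and of the mitochondria. They were taken by name, as the genes whose platform symbol begins with Rpl or Rps followed by a digit, a or p (without the S6 kinase genes, Rps6k) for the cytosolic set, and with Mrpl or Mrps for the mitochondrial set. The platform named 141 such genes, 65 cytosolic and 76 mitochondrial. Of these, 127 were measured, 57 cytosolic and 70 mitochondrial, out of 9173 measured genes in all. A gene counted as measured where its brightest probe reached 6.9 on the deposited log2 scale in at least 3 of 6 mice, and 123 of the members reached this level in all 6. The other 14 lay below the level and were not tested. These were Rpl6, Rpl14, Rpl17, Rpl39l, Rps20, Rps23, Rps23rg1 and Rpsa in the cytosolic set and Mrpl19, Mrpl32, Mrpl39, Mrpl45, Mrps14 and Mrps27 in the mitochondrial set. No member was measured through the mice of 1 group alone.

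The study set cells from the spleens of 3 wild-type mice of strain C57BL/6 (B6) against those of 3 TLR7tg mice, a lupus model with a transgene of Tlr7, whose product senses single-stranded RNA in endosomes. Total RNA was read on Illumina bead arrays. Sample labels give NK (natural killer) cells for B6 and NK1.1+ cells for TLR7tg, whereas the design text speaks of NK1.1+ cells throughout. The sources used here do not give the age or sex of the mice, the promoter that drives the transgene, other alleles, or how cells were isolated. The arrays of replicate 1 of each group lay on 1 slide named in the labels. In the title of TLR7tg replicate 1 stands the mouse identifier of B6 replicate 1, while its other labels have one of its own.

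Cytosolic ribosomes are built in the nucleolus from ribosomal RNA and proteins of a large (60S) and a small (40S) subunit, and they translate the messenger RNAs of the nuclear genome. Mitochondrial ribosomes have subunits of their own (39S and 28S) and make only the few respiratory chain proteins encoded in mitochondrial DNA, yet all of their proteins come from nuclear genes. Cytosolic ribosomal protein messages are abundant and share a pyrimidine tract at their start through which mTOR signalling controls their translation, and lymphocytes that grow or divide raise their output of ribosomes.

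Tlr7 had signals of 8.48, 9.39 and 9.53 in the B6 mice and 13.04, 14.45 and 13.92 in the TLR7tg mice. It was higher in every TLR7tg mouse than in any B6 mouse, by 4.67 (25.4-fold, limma adjusted p = 0.000248). The labelled cell type did not hold equally in both groups. Across all 9173 measured genes, limma called 14.7% at an adjusted p under 0.05, 7.74% higher and 6.97% lower in TLR7tg, and the counts of markers stand beside these shares. Of 14 measured NK marker genes 14 were lower in TLR7tg (median -2.77 on the log2 scale), and their summed linear level ran from 57463 to 63952 in B6 and from 2940 to 8496 in TLR7tg. Of 12 measured neutrophil markers 11 were higher (median 3.51, summed level 2128 to 2239 in B6 and 8910 to 95805 in TLR7tg). Of 15 monocyte and macrophage markers 8 were higher and 1 lower (26829 to 49229 against 93136 to 99789), and of 5 erythroid markers 3 were higher (2032 to 4484 against 9749 to 32203). Of 9 T cell markers 6 were lower (7154 to 9008 against 2560 to 2872). Of 4 plasma cell markers 1 was higher (2413 to 3463 against 5159 to 10467), and of 7 B cell markers (3556 to 6384 against 4146 to 8544) and 6 dendritic cell markers (1902 to 2215 against 1650 to 1771) 0 passed. In such bulk samples, fewer cells of a type and less RNA per cell cannot be told apart, and the part of these cell types in the results on ribosomal genes was not tested.

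Few ribosomal protein genes passed the test, and the median difference of each set lay below 0. Of the 57 cytosolic genes 1 was higher (Rpl3l), 2 were lower (Rpl12 and Rps10) and 54 did not pass, a share called of 5.26%, beside 14.7% of all genes. Of the 70 mitochondrial genes 0 were higher, 2 were lower (Mrpl9 and Mrps23) and 68 did not pass, a share of 2.86%. At an unadjusted p under 0.05 there were 6 cytosolic genes (1 higher, 5 lower) and 7 mitochondrial genes (1 higher, 6 lower), beside 27.7% of all genes. With neighbouring mouse identifiers as a block, the lower genes numbered 8 in the cytosolic set (Rpl12, Rps10, Rpl7a, Rpl19, Rpl29, Rpl32, Rpl27a and Rps21) and 6 in the mitochondrial set (Mrpl9, Mrps23, Mrpl58, Mrps24, Mrps26 and Mrps6), and the higher ones were Rpl3l and Mrpl14. Of all genes, 12.7% then passed as lower and 12.2% as higher. Adjusted p-values without a named block are those of the fit without one.

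Most differences were small and pointed down. The median difference, TLR7tg minus B6, was -0.32 over the cytosolic genes (middle 50% from -0.49 to -0.18) and -0.14 over the mitochondrial genes (-0.34 to 0.027), and -0.062 over all genes. Differences lay below 0 in 48 of 57 cytosolic genes (84.2%) and 51 of 70 mitochondrial genes (72.9%), beside 57.3% of all genes. Only Rpl3l among the 127 members differed by 1 or more in either direction, where 9.83% of all genes did. By subunit, the median was -0.23 over 34 genes of the 60S subunit and -0.33 over 23 of the 40S subunit, of which 21 lay below 0. Without the 5 paralogs and 2 genes that are not ribosomal proteins as such, it was -0.32 over 30 and -0.33 over 20 genes. In the mitochondrial set, split by symbol alone, it was -0.14 over 44 Mrpl genes and also -0.14 over 26 Mrps genes.

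The sets lie in different ranges of probe signal, with median signals of 12.95 and 9.29, which are no measure of how much of each message was present. They were therefore also set beside other genes of like signal. The 40 cytosolic genes with a mean signal of 12 or more had a median difference of -0.34, with 37 below 0. The 190 other genes in that range had a median of -0.10, with 112 below 0. The match is loose, since 143 of these other genes but only 13 of the cytosolic ones lay from 12 to 13. The other genes had a median of -0.16 from 12 to 13, -0.021 from 13 to 14 (35 genes) and -0.00031 from 14 to 16 (12 genes). The 60 mitochondrial genes from 8 to 11 had a median of -0.15, and the 4411 other genes there had a median of -0.11.

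**Figure D1:**
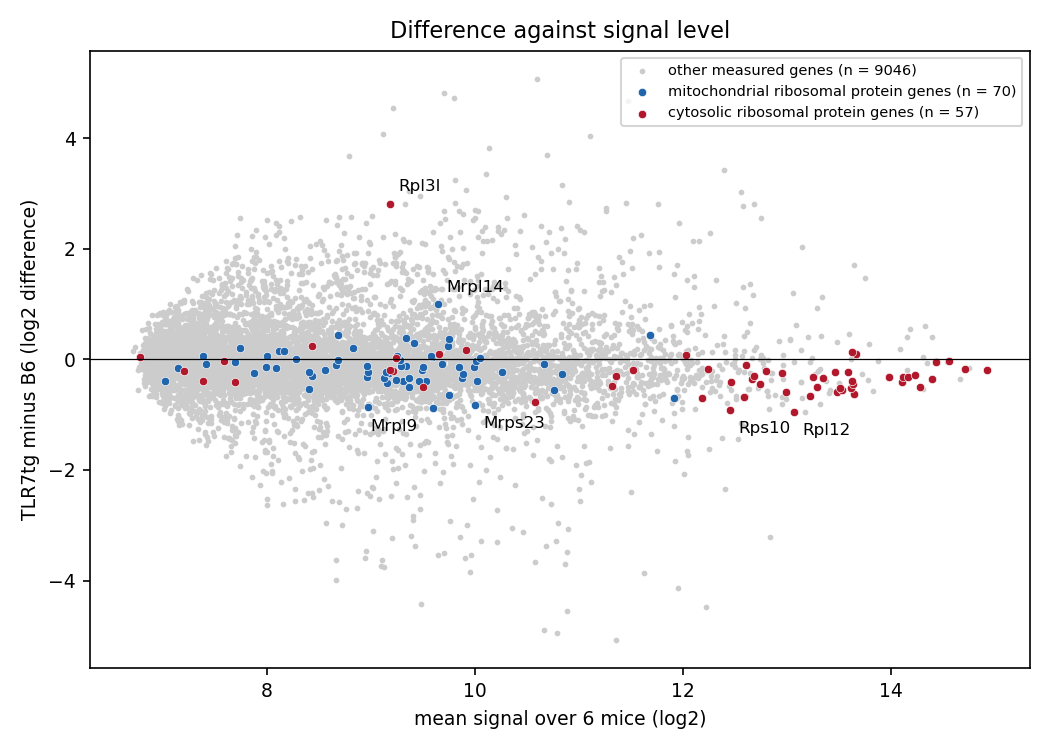
The horizontal axis is the mean log2 signal over 6 mice and the vertical axis the log2 difference, TLR7tg minus B6, for 57 cytosolic (red) and 70 mitochondrial (blue) ribosomal protein genes over the other measured genes (grey). Most red points at the right lie in a narrow band under 0, with Rpl12 and Rps10 at its lower edge, and Rpl3l stands far above at 2.81.

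The group values of the members that passed are best read mouse by mouse. Rpl3l encodes a paralog of the large-subunit protein Rpl3 that is known from heart and skeletal muscle. Its signal was 6.99, 8.03 and 8.31 in B6 replicates 1 to 3 and 10.91, 9.62 and 11.24 in TLR7tg replicates 1 to 3. The groups did not overlap, and all TLR7tg values were well above the highest B6 value. The difference was 2.81 (SE 0.45), or 7.04-fold on the deposited scale, with a limma adjusted p of 0.00386, and it passed in every alternative tried (adjusted p from 0.00136 to 0.0423).

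The scanner signals of the named slide were higher in TLR7tg replicate 1 for 125 of the 127 members before any scaling, so that only scaled signals bear on a difference. On the 2 arrays of B6 replicate 1 the Rpl3l probe gave 148.4 and 145.3 units, and on the 2 arrays of TLR7tg replicate 1 it gave 9624 and 14332 units. Scaled on each array's median over the measured genes, the Rpl3l difference was 5.55. The deposited difference between these 2 mice was 3.92, and that of the other 4 mice was 2.26.

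The next gene along chromosome 17 (GRCm38.p6) moved with Rpl3l. Msrb1, which encodes a selenoprotein that repairs oxidised methionine, begins 449 bases beyond the end of Rpl3l. It had 7.93, 8.79 and 9.23 in B6 and 10.56, 10.47 and 11.07 in TLR7tg, without overlap (difference 2.05, SE 0.32, limma adjusted p = 0.00363). On the other side, the mitochondrial complex I gene Ndufb10 (-0.26) and the ribosomal gene Rps2 (-0.35) did not pass. These 3 neighbours were taken by position. Whether the Rpl3l probe reads transcripts of its neighbour was not tested.

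Rps10, a small-subunit protein whose human gene is mutated in some cases of Diamond-Blackfan anaemia, had 12.76, 12.89 and 13.09 in B6 and 11.95, 11.997 and 12.03 in TLR7tg. The TLR7tg mice lay close together and all below B6. It fell by 0.92 (SE 0.17, limma adjusted p = 0.00748), passed in every alternative, and differed by -0.81 between the mice of the named slide and by -0.98 among the other 4 mice.

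Rpl12, which sits at the base of the large subunit's stalk, had 13.34, 13.56 and 13.72 in B6 and 12.38, 12.48 and 12.90 in TLR7tg. The groups did not overlap, and it fell by 0.95 (SE 0.20, limma adjusted p = 0.0147). Its call ended where B6 replicate 2 (adjusted p = 0.0651), B6 replicate 3 (0.0619) or TLR7tg replicate 2 (0.0550) was left out, with differences from -1.11 to -0.85.

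Mrpl9, a protein of the mitochondrial large subunit, had 9.83, 10.20 and 10.09 in B6 and 8.93, 9.25 and 9.31 in TLR7tg. All TLR7tg values were below all B6 values, and the gene fell by 0.88 (SE 0.19, limma adjusted p = 0.0156). A second kept probe of Mrpl9 differed by -0.61 and did not pass (adjusted p = 0.0695). Leaving out B6 replicate 2 (adjusted p = 0.0808) or B6 replicate 3 (0.0594) ended the call.

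Mrps23, a protein of the mitochondrial small subunit, had 10.23, 10.56 and 10.45 in B6 and 9.86, 9.36 and 9.54 in TLR7tg, again without overlap. It fell by 0.83 (SE 0.19, limma adjusted p = 0.0224). Its second kept probe differed by -0.47 (adjusted p = 0.183). Of the 4 lower members it lost its call most often. This happened where B6 replicate 2 (adjusted p = 0.105), B6 replicate 3 (0.0779), TLR7tg replicate 2 (0.0745) or TLR7tg replicate 3 (0.0617) was left out, and after normexp background correction (0.0568).

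Mrpl14, another protein of the mitochondrial large subunit, did not pass without a block (difference 0.99, SE 0.29, limma adjusted p = 0.0540) and passed with the identifier block (0.00770). It was picked once the values were known, as the mitochondrial member with the highest difference. It had 9.05, 8.96 and 9.45 in B6 and 10.48, 9.48 and 10.48 in TLR7tg. TLR7tg replicate 2 lay just above the highest B6 mouse, and without it the difference was 1.33 (adjusted p = 0.0103). Its scanner signals were 1304 and 1504 units on the arrays of B6 replicate 1 and 7309 and 9781 units on those of TLR7tg replicate 1, a difference of 1.82 once scaled in the same way.

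**Figure D2:**
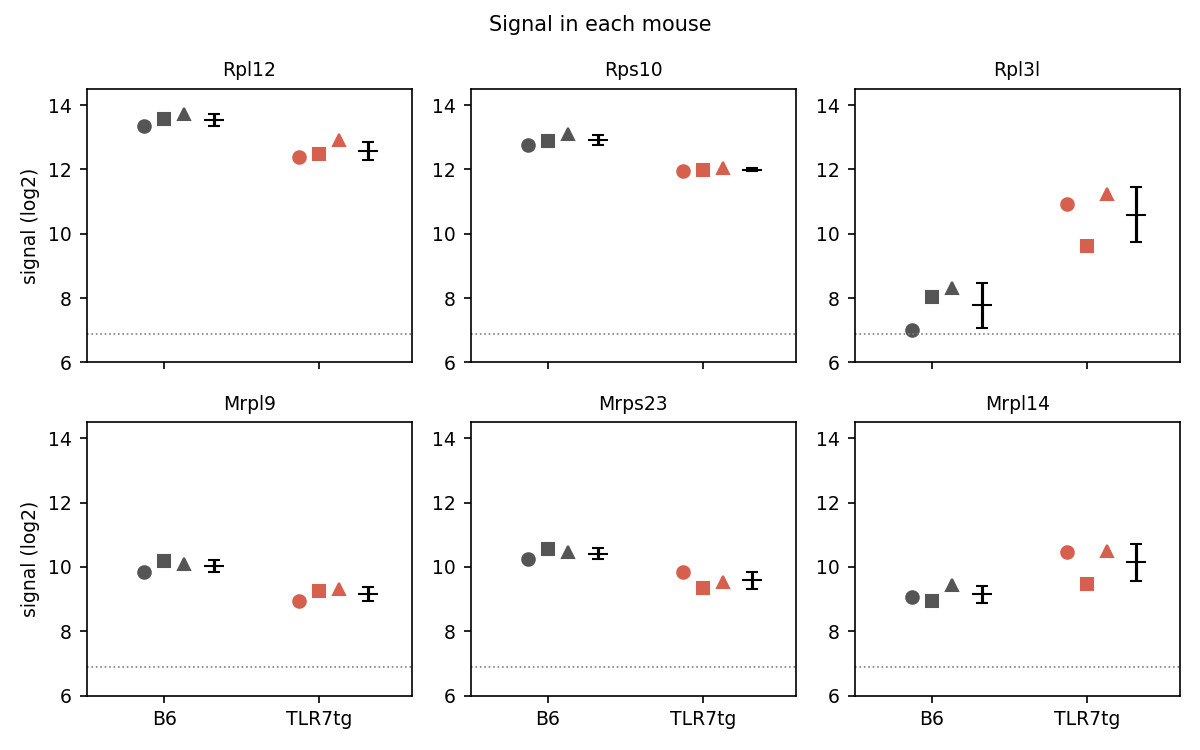
Each panel plots the log2 signal of 1 gene in 3 B6 (grey) and 3 TLR7tg (red) mice, with circles, squares and triangles for replicates 1, 2 and 3, the mean and SD as bars, and the level of 6.9 as a dotted line. In all 6 panels the groups do not overlap, and for Mrpl14 the TLR7tg square at 9.48 nearly meets the highest B6 mouse at 9.45.

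The start regions of these 6 genes are shown because 4 of them fell and 2 had the highest differences of their sets. Each run covers 120 bases before to 20 bases after the RefSeq start in GRCm38.p6, on the gene's strand. Capitals mark matches, on either strand, to motifs known from promoters of housekeeping genes, which were CCGGAAG (bound by GABPA and related ETS factors), GCGCANGC (part of the NRF1 site), AAGATGGC (YY1), CTCGCGAG and GGGCGG (SP factors). Matches of one motif may overlap its own reverse.
Rpl12 (chr2:32961592-32961731, plus strand): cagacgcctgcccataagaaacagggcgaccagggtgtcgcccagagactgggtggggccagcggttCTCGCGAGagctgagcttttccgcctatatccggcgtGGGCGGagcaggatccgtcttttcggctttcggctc
Rps10 (chr17:27635225-27635364, minus strand): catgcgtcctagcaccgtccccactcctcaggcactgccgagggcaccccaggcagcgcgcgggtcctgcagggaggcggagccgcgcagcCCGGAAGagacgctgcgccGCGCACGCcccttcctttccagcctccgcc
Mrpl9 (chr3:94443216-94443355, plus strand): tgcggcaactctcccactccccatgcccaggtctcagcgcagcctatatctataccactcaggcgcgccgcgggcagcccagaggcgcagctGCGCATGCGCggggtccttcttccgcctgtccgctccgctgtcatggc
Mrps23 (chr11:88204268-88204407, plus strand): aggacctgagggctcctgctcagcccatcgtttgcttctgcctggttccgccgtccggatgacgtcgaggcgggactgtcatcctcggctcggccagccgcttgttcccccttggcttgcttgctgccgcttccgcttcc
Mrpl14 (chr17:45686229-45686368, plus strand): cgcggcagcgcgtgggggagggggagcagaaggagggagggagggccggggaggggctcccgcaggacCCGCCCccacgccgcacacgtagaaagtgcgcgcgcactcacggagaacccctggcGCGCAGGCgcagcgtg
Rpl3l (chr17:24727706-24727845, plus strand): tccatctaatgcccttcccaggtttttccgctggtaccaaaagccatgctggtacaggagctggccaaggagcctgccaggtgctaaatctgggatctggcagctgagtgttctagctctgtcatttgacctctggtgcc
The Rpl3l run, 1 of 2 windows that the table holds for this gene, had none of these motifs, and neither had the Mrps23 run, whose CCGGAAG lies outside the stretch shown. The other 4 held 1 or 2 of them.

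Over all members with a RefSeq window of 250 bases before to 50 after the start (48 cytosolic and 62 mitochondrial genes), CCGGAAG was found in 39.6% of cytosolic and 38.7% of mitochondrial windows, beside 19.3% of 7479 windows of measured genes and 9.12% of 27025 windows in the table. AAGATGGC was found in 6.25% and 16.1% of the 2 sets and 5.17% of measured genes, and GCGCANGC in 12.5% and 27.4%, beside 20.6%. CTCGCGAG, the palindrome of the Rpl12 run, was in 5 cytosolic windows (10.4%) and 2 mitochondrial windows (3.23%), beside 1.91% of measured genes. The cytosolic ones were those of Rpl12, Rpl27a, Rps6, Rpl26 and Rps19, whose differences ran from -0.95 to 0.13. GGGCGG was in 31 of 48 and 31 of 62 windows, beside 63.7%. A run of at least 5 pyrimidines that opens with C within 10 bases of the start was in 56.2% and 40.3%, beside 32.5%.

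Differences of genes with and without these letters were set side by side. Cytosolic genes with CCGGAAG had a median difference of -0.32 (19 genes) and those without it -0.31 (29 genes), and mitochondrial genes had -0.21 (24 genes) and -0.14 (38 genes). For the pyrimidine run the order differed between the sets, with -0.35 (27 genes) against -0.29 (21 genes) without it in the cytosolic set and -0.13 (25 genes) against -0.20 (37 genes) in the mitochondrial set. Mitochondrial genes with GCGCANGC had -0.089 (17 genes) and those without it -0.16 (45 genes), and those with GGGCGG had -0.22 and without it -0.14 (31 genes each). The letters AAGATGGC (cytosolic -0.19 in 3 genes against -0.33) and CTCGCGAG (mitochondrial -0.015 in 2 genes against -0.15) were in too few genes for a median to be read. None of these pairs of medians was tested. These shares and medians are descriptions, since matches to so few letters are no binding sites and members of a set were not drawn independently.

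In 21 members the groups did not overlap. Over all genes this held for 32.7% (14.1% higher and 18.5% lower in TLR7tg). In the cytosolic set 1 gene was higher and 10 lower without overlap (19.3%), and in the mitochondrial set 2 were higher and 8 lower (14.3%). Beside the called genes, the lower cytosolic ones were Rpl29 (-0.70), Rps3a1 (-0.49), Rps12 (-0.40), Rpl10a (-0.40), Rps2 (-0.35), Rps16 (-0.33), Rps13 (-0.31) and Rpl41 (-0.18). Of these 8, 5 belong to the small subunit. Second kept probes of Rpl29 (-0.53), Rps2 (-0.44) and Rps12 (-0.067) had groups that overlapped, and that of Rps13 (-0.52) had groups that did not. The lower mitochondrial ones were Mrpl58 (-0.86), Mrps24 (-0.70), Mrps26 (-0.64), Mrps6 (-0.54), Mrpl18 (-0.38) and Mrps11 (-0.23), and the higher ones Mrpl14 and Mrpl33 (0.44). Second kept probes of Mrps26 (-0.60), Mrps11 (-0.14) and Mrpl33 (0.37) had groups that overlapped. None of the 16 genes listed here passed the adjusted test without a block. With the identifier block 6 of them did, namely Mrpl58 (adjusted p = 0.00527), Mrpl14 (0.00770), Mrps26 (0.0296), Rpl29 (0.0308), Mrps24 (0.0333) and Mrps6 (0.0457).

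Rps13, a small-subunit protein, shows how small and yet orderly such a difference can be. It had 12.84, 12.85 and 12.81 in B6 and 12.55, 12.50 and 12.53 in TLR7tg, a difference of -0.31 (adjusted p = 0.265). Mrpl58, an enzyme that frees stalled mitochondrial ribosomes, came nearest to a call among the uncalled lower mitochondrial genes in the fit without a block. It had 8.93, 9.54 and 9.74 in B6 and 8.29, 8.46 and 8.88 in TLR7tg (difference -0.86, limma adjusted p = 0.0563), and the groups nearly met. Rpl29, a basic protein of the large subunit, had 12.46, 12.66 and 12.46 in B6 and 12.06, 11.47 and 11.97 in TLR7tg (difference -0.70, adjusted p = 0.0537).

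TLR7tg replicate 2 had the lowest value in most ribosomal genes. It had the lowest of the 6 values in 32 of 57 cytosolic genes (56.1%) and in 50 of 70 mitochondrial genes (71.4%), where it was lowest in 22.7% of all genes, and it was the highest in 0 of 127 members, beside 18.7% of all genes. The median deviation from the gene mean in B6 replicates 1 to 3 was 0.058, 0.14 and 0.13 over the cytosolic genes and 0.048, 0.064 and 0.12 over the mitochondrial genes. In TLR7tg replicates 1 to 3 it was -0.11, -0.32 and 0.11 over the cytosolic and 0.034, -0.38 and 0.11 over the mitochondrial genes. The median level of the cytosolic set was nonetheless lowest in TLR7tg replicate 1 (12.41, against 12.48 in replicate 2). In TLR7tg replicate 3 both median deviations lay among the B6 values. This ordering of the mice was not one of all genes, whose medians ran from -0.060 to 0.054. TLR7tg replicate 2 also had the highest summed level of neutrophil markers (95805, against 48100 and 8910 in replicates 1 and 3) and of erythroid markers (32203, against 9749 and 21826), and the part of these in its low values was not tested.

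**Figure D3:**
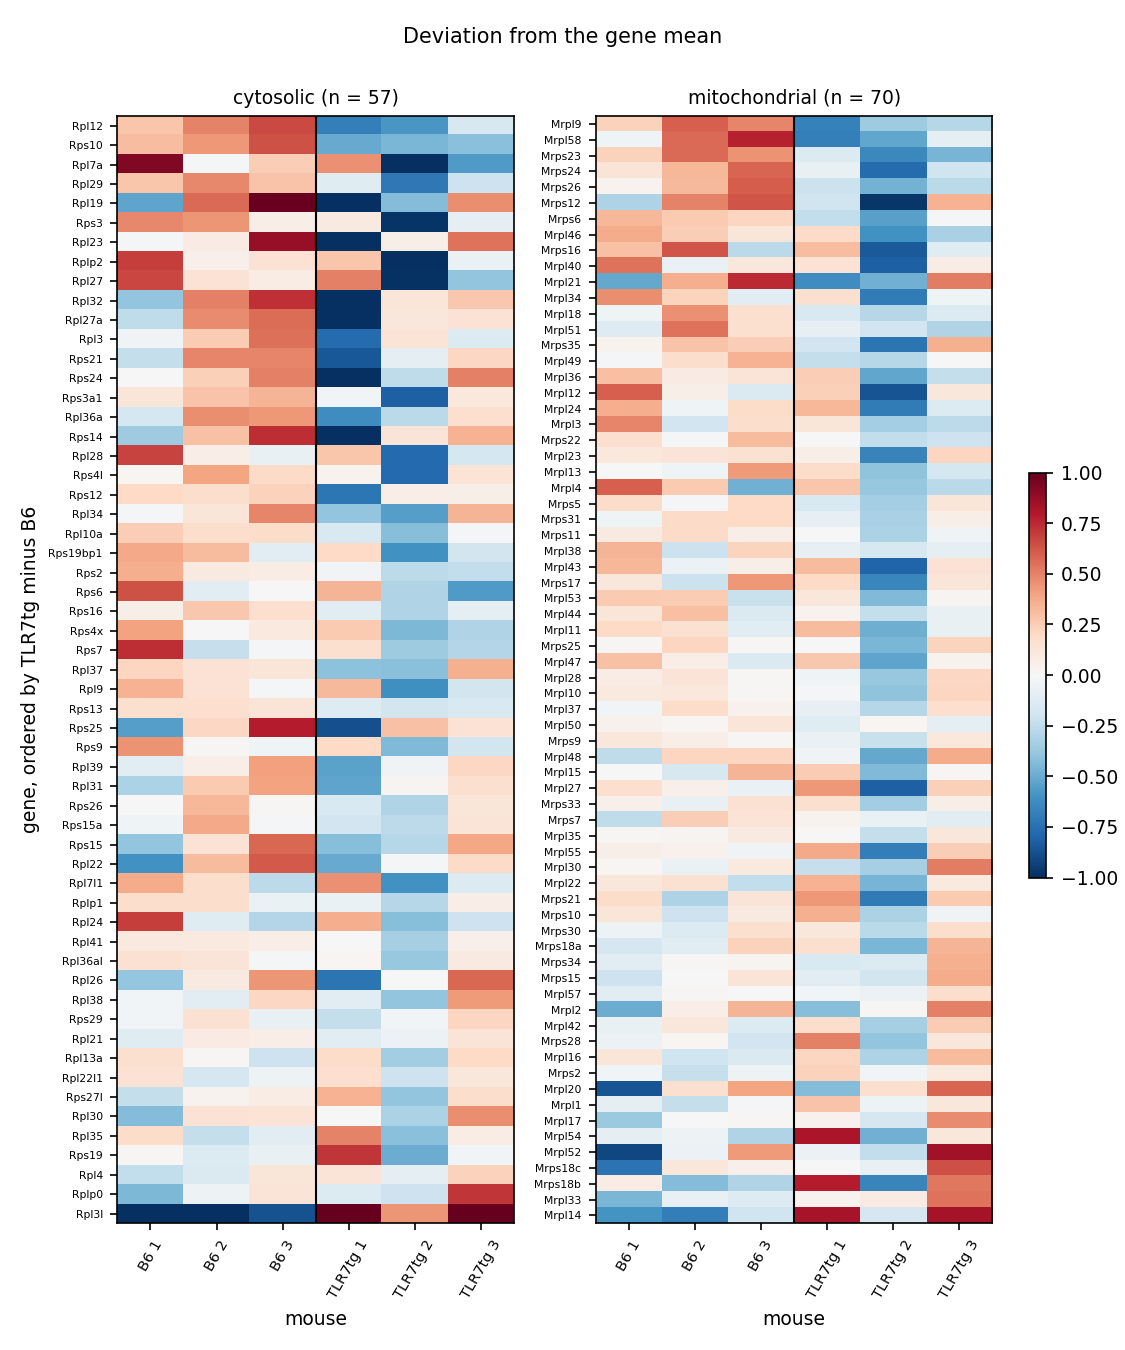
Each row is 1 gene, ordered by TLR7tg minus B6, and each column 1 mouse, with colour for the log2 deviation from the gene mean (clipped at -1 and 1) in 57 cytosolic (left) and 70 mitochondrial (right) genes. The column of TLR7tg replicate 2 is blue through most of both panels, whereas that of TLR7tg replicate 1 is dark blue or red in cytosolic genes and mostly pale in mitochondrial ones.

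The spread within groups was wider among the ribosomal genes of the TLR7tg mice. The median SD over 3 mice was 0.25 in B6 and 0.42 in TLR7tg for the cytosolic genes and 0.19 and 0.34 for the mitochondrial genes, beside 0.21 and 0.26 over all genes. Other genes of like signal shared much of this width. At a mean signal of 12 or more it was 0.22 and 0.44 for cytosolic genes and 0.25 and 0.39 for other genes. From 8 to 11 it was 0.20 and 0.35 for mitochondrial genes and 0.22 and 0.29 for other genes. Rpl23, a large-subunit protein that also binds the p53 regulator Mdm2, had the widest spread among TLR7tg mice, with 13.63, 13.73 and 14.51 in B6 and 12.10, 13.71 and 14.19 in TLR7tg. Only TLR7tg replicate 1 lay clearly low, and the difference of -0.63 had an SE of 0.49 (adjusted p = 0.501). A second kept probe of Rpl23 differed by -0.58 (SE 0.26), with TLR7tg replicate 1 again lowest (12.38). In another, dimmer kept probe of Rpl23 the difference was 0.039 and TLR7tg replicate 1 was the highest mouse (9.40). Rpl7a, another large-subunit protein, had 11.51, 10.56 and 10.82 in B6 and 11.03, 9.54 and 10.01 in TLR7tg. Here TLR7tg replicate 1 lay among the B6 mice and the other 2 below them (difference -0.77, SE 0.38, adjusted p = 0.255, and 0.0109 with the identifier block). Rps3, a small-subunit protein with further roles in DNA repair and NF-kB signalling, had 13.71, 13.66 and 13.29 in B6 and 13.31, 12.24 and 13.13 in TLR7tg. Its difference of -0.66 (adjusted p = 0.186) went with a TLR7tg replicate 2 that lay far below the other mice. A second kept probe of Rps3 differed by -0.65 (limma adjusted p = 0.125). It had 11.65, 11.52 and 12.10 in TLR7tg, with replicate 2 close to replicate 1.

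Members with known regulatory roles, named for these roles with their values known, did not pass. Rps6, the substrate of S6 kinase, had 13.30, 12.56 and 12.66 in B6 and 13.01, 12.36 and 12.10 in TLR7tg (difference -0.35, adjusted p = 0.522), with groups that overlapped. Rpl13a, which in human monocytic cells leaves the ribosome to silence inflammatory messages after interferon-gamma, had 9.40, 9.25 and 9.03 in B6 and 9.42, 8.90 and 9.44 in TLR7tg (difference 0.026). Rps19, the first gene linked to Diamond-Blackfan anaemia in humans, differed by 0.13, with the highest value (14.34) and the lowest (13.13) both in TLR7tg mice. Mrpl12, which also binds mitochondrial RNA polymerase, had 9.72, 9.18 and 8.98 in B6 and 9.36, 8.27 and 9.24 in TLR7tg (difference -0.34, adjusted p = 0.592). Mrps12, a protein of the decoding centre of the mitochondrial small subunit, had 10.45, 11.26 and 11.39 in B6 and 10.56, 9.79 and 11.11 in TLR7tg (difference -0.55, adjusted p = 0.402). In Mrpl12 and Mrps12 the lowest of the 6 values was that of TLR7tg replicate 2, and the other TLR7tg mice lay among the B6 mice.

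The contrast of the sets depended on which TLR7tg mice were in the comparison. With all mice the cytosolic median (-0.32) lay below the mitochondrial one (-0.14). Without TLR7tg replicate 2 the medians were -0.19 and 0.013, beside -0.067 over all genes, so that the mitochondrial set no longer lay below 0. Without TLR7tg replicate 1 the order of the sets turned, with -0.20 over cytosolic and -0.24 over mitochondrial genes. Leaving out any other mouse gave -0.37 to -0.30 and -0.24 to -0.14. Between the mice of the named slide the medians were -0.25 and -0.016, and among the other 4 mice they were -0.29 and -0.22.

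**Figure D4:**
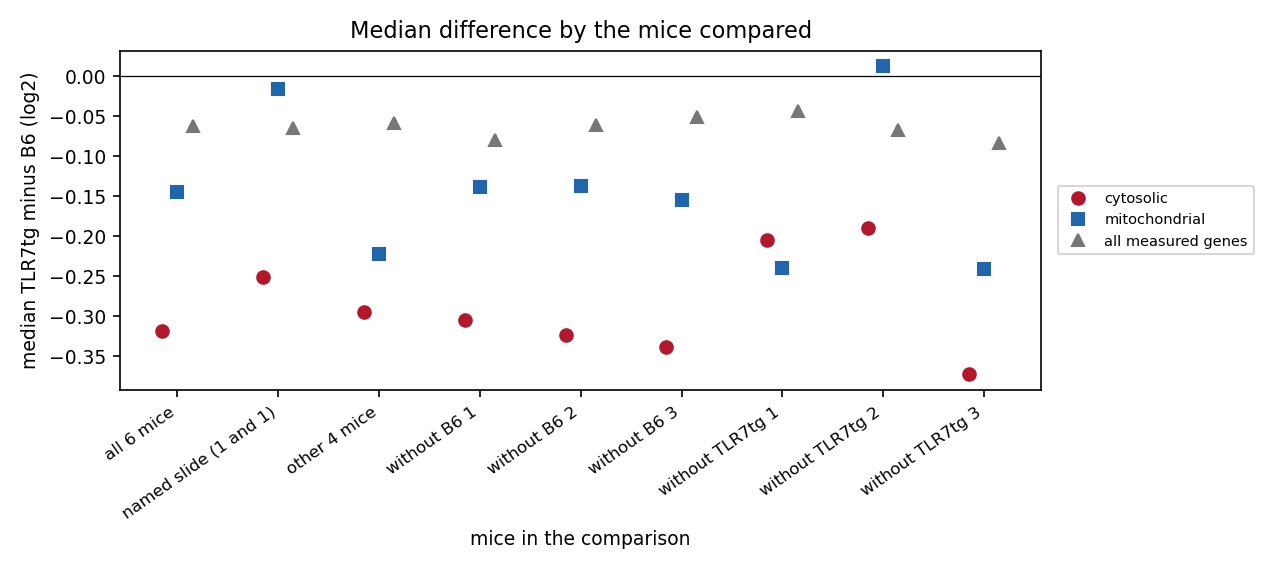
The vertical axis is the median log2 difference, TLR7tg minus B6, over cytosolic genes (red circles), mitochondrial genes (blue squares) and all measured genes (grey triangles), and the horizontal axis gives the mice compared. Red lies below grey in every column, from -0.37 to -0.19, while blue rises above grey between the mice of the named slide and without TLR7tg replicate 2.

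Mice of the named slide also stood apart in single genes. Both replicate 1 mice lay below the other 4 in 13 cytosolic genes and above them in 14, together 47.4% of the set, beside 17.1% of mitochondrial and 27.1% of all genes. Rps14, a small-subunit protein, is an example. It had 13.27 in B6 replicate 1 and 12.48 in TLR7tg replicate 1, while the other B6 mice had 13.93 and 14.37 and the other TLR7tg mice 13.76 and 13.97. The labels tie no slide to the other 4 mice, so the slide block only set both replicate 1 mice apart from the rest. With the slide as a block, 7 cytosolic genes passed as lower (Rpl12, Rps10, Rpl29, Rpl7a, Rpl32, Rpl27a and Rps21). The lower mitochondrial genes numbered 4 (Mrpl9, Mrps23, Mrpl58 and Mrps26), and 11.8% of all genes were lower. Rpl3l and Mrpl14 passed as higher, beside 11.1% of all genes. Among the 4 mice outside the named slide alone, 4 cytosolic and 5 mitochondrial genes passed as lower, beside 5.98% of all genes. Without TLR7tg replicate 1, Rpl27 (-0.99) and Rpl7a (-1.19) were among the 5 cytosolic genes that passed as lower, beside 6.86% of all genes.

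The downward shift of the cytosolic set in the named slide also depended on the scaling of the arrays. Relative to all measured genes, its median difference between these 2 mice was -0.19 in the deposited values and -0.0063 in raw scanner signals scaled on each array's median over the measured genes. That of the mitochondrial set was 0.048 and 0.25. For the 40 cytosolic genes with a mean signal of 12 or more it was -0.32 and -0.25, and for the 190 other genes of that range -0.12 and 0.17. The 4 lower members stayed below 0 with raw signals but came nearer to it, from -0.90 to -0.56 for Rpl12, from -0.74 to -0.36 for Rps10, from -0.84 to -0.73 for Mrpl9 and from -0.31 to -0.031 for Mrps23, where little was left. Rpl3l went from 3.98 to 5.55 and Mrpl14 from 1.48 to 1.82. The scanner's upper limit bears on the brightest probes. Of the cytosolic genes 12 (21.1%) reached 90% of an array's highest signal on at least 1 of the 4 named arrays. This held for 0 mitochondrial genes and 0.436% of all genes. At a mean signal of 12 or more it held for 30.0% of the cytosolic and 14.7% of the other genes. Deposited differences of such genes can be understated, while scaled raw differences can be drawn below 0. The part of this in the raw medians of -0.25 and 0.17 was not tested.

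The 3 brightest probes of the cytosolic set lay near the scanner's upper limit, where differences cannot be read well. Rplp1, an acidic protein of the stalk, had 15.09, 15.09 and 14.85 in B6 and 14.85, 14.64 and 14.99 in TLR7tg, a difference of -0.19. Its groups overlapped. Rpl41, a very short peptide of the large subunit, differed by -0.18 and Rps29, a zinc-binding small-subunit protein, by -0.033. Rplp1 and Rpl41 were near the highest signal on all 4 named arrays and Rps29 on 2. Between the mice of the named slide, relative to all genes, raw signals gave -0.78 for Rplp1, -0.71 for Rpl41 and -0.43 for Rps29, where the deposited values gave -0.18, -0.031 and -0.15. Before scaling, the raw log2 ratios of these 3 were -0.010, 0.063 and 0.34, beside a median of 0.88 over the 127 members. A probe held at the limit in both mice falls below 0 once scaled, so these scaled raw values do not measure a fall. Of the other stalk proteins, Rplp2 differed by -0.59 (B6 14.17, 13.53 and 13.62, TLR7tg 13.75, 12.37 and 13.41) and Rplp0, the scaffold of the stalk, by 0.25. Neither passed. The brightest mitochondrial probes were those of Mrps24 (-0.70, adjusted p = 0.0817), Mrpl33 (0.44) and Mrpl23 (-0.26).

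Of the paralog pairs, Rpl3l and Rpl3 differed in opposite directions, and of these genes Rpl3l alone passed. Rpl3, which forms part of the peptidyl transferase region in most cells, had 13.47, 13.76 and 14.06 in B6 and 12.73, 13.64 and 13.37 in TLR7tg. Its groups overlapped, and it differed by -0.52 (adjusted p = 0.266). In the other pairs no member passed: Rpl22 (-0.21) and Rpl22l1 (0.049), Rps4x (-0.33) and Rps4l (-0.41), and Mrps18a (0.030), Mrps18b (0.43) and Mrps18c (0.39). Rpl39 differed by -0.24 while its partner Rpl39l was below the level, and Rps27l differed by 0.084. Genes that the symbol rule takes in although they are not ribosomal proteins as such, the Rps19-binding protein gene Rps19bp1 (-0.39) and the Rpl7-like gene Rpl7l1 (-0.19), did not pass either.

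Several genes were read by more than 1 kept probe. In the cytosolic set 15 genes had 35 kept probes, and in 8 of these genes the signs of the probes differed. In the mitochondrial set 23 genes had 57 kept probes, and signs differed in 9. In 0 of these 17 genes did probes differ by over 0.25 in each direction. The span between the differences of a gene's probes was nonetheless not small beside the set medians. Its median was 0.30 in the cytosolic and 0.25 in the mitochondrial set, and the largest spans were 0.69 and 0.51. Ribosomal protein genes have many processed pseudogenes with near-identical sequence, so that a probe may also read such copies and values of single cytosolic genes are uncertain.

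Genes that build, feed and steer the ribosome mostly did not pass either. Of 50 measured ribosome biogenesis genes 1 was higher and 1 lower (4.0%, median -0.18), and 5 were lower with the identifier block. Over all genes the share called was 14.7%, and with the identifier block 12.7% were lower and 12.2% higher, which are also the shares to set beside the lists that follow. Pno1, a factor of small-subunit assembly, rose by 0.62 (adjusted p = 0.0385), and Surf6, a nucleolar protein of ribosomal RNA processing, fell by 0.74 (adjusted p = 0.0384). Both calls ended in several alternatives, that of Pno1 without any single mouse (adjusted p from 0.0668 to 0.160) and that of Surf6 without any mouse but TLR7tg replicate 1 (from 0.0529 to 0.160).

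Of 45 translation factor genes 1 was higher and 1 lower (4.44%, median -0.093), and 3 were lower with the identifier block. Eif4ebp1 encodes 4E-BP1, which holds back the cap-binding factor eIF4E until mTOR phosphorylates it. It had 8.46, 8.53 and 9.30 in B6 and 10.55, 10.17 and 10.31 in TLR7tg. The groups did not overlap, and it rose by 1.58 (SE 0.25, 2.995-fold, limma adjusted p = 0.00366, from 0.00148 to 0.0238 over its alternatives). Eef2k, the kinase that slows elongation by phosphorylating eEF2, had 7.999, 7.78 and 7.65 in B6 and 7.04, 6.68 and 6.95 in TLR7tg. It fell by 0.92 (adjusted p = 0.0109), and 1 TLR7tg mouse lay below the level of 6.9.

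Of 17 measured aminoacyl-tRNA synthetase genes of the cytosol 0 passed (median 0.016), and of 39 mitochondrial translation genes 0 passed (median -0.14). With the identifier block the synthetases had 1 lower, and the mitochondrial translation genes 1 higher and 1 lower. The higher one was Nsun4, a methyltransferase of mitochondrial ribosomal RNA picked with its values known, which differed by 0.65 without overlap (adjusted p = 0.0639, and 0.0153 with the block). Of 18 genes of mTOR, S6 kinase and MYC signalling 1 was lower (5.56%, median -0.13), and 3 with the identifier block. Without the block this was Mxd4, a MAX-binding protein that opposes MYC, with 10.61, 10.39 and 10.71 in B6 and 9.08, 9.52 and 9.31 in TLR7tg. All TLR7tg mice lay below all B6 mice, and it fell by 1.27 (SE 0.19, limma adjusted p = 0.00268).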

How the data were processed

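Total RNA of 6 mouse samples was measured on Illumina bead arrays, with biotin-labelled cRNA made from Trizol extracts, per the labels' protocols. The authors deposited log2 values of 45281 probes, whose nearly identical sorted columns show quantile normalisation. Their tool, and any background correction, are not given in the sources used here. Log2 values of replicate 1 of each group are averages of 2 technical arrays, per the labels. Per the file headers, the deposited scanner table gives, for each array, a detection p-value and a signal, and its values show linear intensity that is not normalised. Among its columns, 8 fit no mouse's labels and were left out. All 57 cytosolic and 70 mitochondrial genes had a detection p-value under 0.05 on all 4 named arrays in that deposited table. The number of arrays limits the precision, and differences of dim genes are understated without background correction.

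Probes at 6.9 or more in at least 3 samples (16535) went into a fit with limma 3.58.1 (functions lmFit and eBayes, R 4.3.3, 3 against 3 mice, no covariate), with Benjamini-Hochberg adjustment over all kept probes and a threshold of 0.05. Each gene was read through its brightest kept probe. Scripts were tested on simulated data. The mice carry separate identifiers, so that p-values measure the spread between samples of separate mice. That spread includes any shift between slides, which the fit without a block does not separate. Replicate numbers are names only. Mice of neighbouring identifiers deviated together in replicates 1 and 3 (correlations of 0.63 and 0.45) and only weakly in replicate 2 (0.12). Values with these pairs as a block stand beside the calls they change. Gene names came from GEO's platform annotation, and promoter windows from RefSeq (GRCm38.p6).

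The members, lists and alternatives were chosen with earlier results of these data known. Named were members past the threshold, the 3 brightest of each set, stalk proteins, paralog pairs, members that are not ribosomal proteins as such, and in each pathway list the 3 largest rises and falls past the threshold. Of the others, some are marked as chosen after their values were seen, and Rpl23, Rpl7a, Rps3 and Rps14 were also chosen so. Further ones were listed because their groups did not overlap or for their results in an alternative. Alternatives covered the filter, probe averaging, centring, normexp, the spread model, array weights, blocks and left-out mice. Scaling of raw scanner signals was added after the data were seen. Rpl10, Rps27 and Mrps36 were not analysed here.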

Additional observations from a re-analysis of the deposited data

How the results depend on the processing

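Left-out mice moved the set medians from -0.37 to -0.19 (cytosolic) and from -0.24 to 0.013 (mitochondrial, which changed sign without TLR7tg replicate 2). With raw scanner signals of the named slide, relative to all genes, they were -0.0063 in place of -0.19 and 0.25 in place of 0.048, and the cause was not tested. Lower cytosolic genes numbered 2, and 3 with array weights, 8 with the identifier block, 7 with the slide as a block and 4 in the 4 mice outside the named slide. Lower mitochondrial genes numbered 2, and 1 with normexp, 5 with array weights, 6 with the identifier block, 4 with the slide as a block and 5 in the 4 mice. Higher mitochondrial genes numbered 1 with array weights or either block. Without 1 mouse each, 1 to 1 cytosolic genes were higher and 1 to 5 lower. Of the mitochondrial genes, 0 to 1 were then higher and 0 to 4 lower. Of all genes, 8.64% were lower and 9.02% higher with array weights, and 6.34% were lower with normexp. With the identifier block these shares were 12.7% and 12.2%, and with the slide block 11.8% and 11.1%. In the 4 mice outside the named slide 5.98% of all genes were lower. Left-out mice gave 3.72% to 6.86% lower and 4.59% to 8.24% higher over all genes.

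Ribosome biogenesis had 0 higher with normexp, with a trended robust spread and in the 4 mice, and 0 lower with detection in all 6 mice, 5 with the identifier block and 3 with that of the slide (left-out mice, 0 to 0 higher and 0 to 2 lower). Translation factors had 0 lower with detection in all 6 mice, 2 with array weights, the slide block or the 4 mice, and 3 with the identifier block (left-out mice, 1 to 1 higher and 1 to 2 lower). Synthetases had 1 lower with the identifier block. Mitochondrial translation had 1 higher and 1 lower with array weights or either block, and 1 lower without a filter (left-out mice, 0 to 1 higher, 0 to 0 lower). The mTOR, S6 kinase and MYC list had 3 lower with array weights or the identifier block and 2 with the slide block. Left-out mice gave this list 0 to 0 higher and 1 to 2 lower. The shares over all genes given above also stand beside these lists. Further shares over all genes were 6.47% lower with detection in all 6 mice and 2.83% lower without a filter. Higher were 7.5% with normexp, 7.7% with a trended robust spread and 7.05% in the 4 mice.

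The sign turned in the 4 mice in 6 cytosolic and 6 mitochondrial members and with at least 1 left-out mouse in 17 and 31, of which 0 had passed. The largest differences among these in each set were those of Rps14 (-0.45, up to 0.011 without 1 mouse) and Mrpl52 (0.36, down to -0.0031). Of the bright, stalk, paralog and non-ribosomal members named, those that turned in the 4 mice were Rps29 (0.057), Rps27l (-0.17) and Mrps18a (-0.12), and among left-out mice Rplp0 (-0.045 to 0.42), Rps29 (-0.15 to 0.078), Mrpl23 (-0.43 to 0.0073), Rpl22 (-0.57 to 0.041), Rpl22l1 (-0.024 to 0.17), Rps27l (-0.070 to 0.30), Mrps18a (-0.13 to 0.27) and Rpl7l1 (-0.47 to 0.065). The identifier block pairs mice of neighbouring identifiers, which each correlated over 0.1 (0.12 to 0.63), though the labels state no pairing. B6 replicate 2 correlated slightly better with TLR7tg replicate 3 (0.14) than with its neighbour (0.12). TLR7tg replicate 2 also correlated better with B6 replicate 3 (0.21) than with that same neighbour, B6 replicate 2. The number of arrays limits what small differences the test can call.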
